A study of Mus musculus with 2 samples.

Results

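Asprv1 and Prok2 are 2 of the 27842 genes listed in the count tables of a mouse bone marrow study, and were selected on their measured difference between the 2 libraries, since both stood much higher in neutrophils of diabetic mice in an earlier reading of these same data. Their levels and differences are therefore descriptions, and no test was made of them. The study sequenced single marrow cells, taken from the femurs and tibias of mice of the strain C57/BL6, in 2 libraries. The control library came from mice given sodium citrate solution, with normal blood sugar. The T1D library, named for type 1 diabetes, came from mice with high blood sugar after streptozotocin, which destroys the pancreatic beta cells that make insulin. The sources used here do not give the age or sex of the mice, the number of mice behind each library, or the dose and the time since streptozotocin. There was 1 library per group, so no difference has a replicate check. All intervals are exact 95% intervals that cover counting error only.

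Neutrophils mature in the marrow through stages that are told apart by the granule proteins they make. Progenitors make the primary granule enzymes such as Mpo, immature cells make secondary granule proteins such as Ltf and Ngp, and late cells carry the chemokine receptor Cxcr2 before they leave for the blood. Asprv1 encodes a retroviral-like aspartic protease, best known from the outer layers of the skin, where it processes profilaggrin. Prok2 encodes prokineticin 2, also called Bv8, a small secreted protein that acts on the receptors Prokr1 and Prokr2. In myeloid cells Prok2 is known as a gene induced by G-CSF through STAT3, and its protein as one that promotes blood vessel growth and the release of myeloid cells from the marrow.

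Both genes lie on mouse chromosome 6. The 250 bases before each start site are shown because the genes followed each other closely across cell types, so that the reader can see how different the promoter windows are. The sequences and positions are those of RefSeq on GRCm38.p6, which is not the build of the count tables, each printed on the strand of its gene, 5′ to 3′, with capitals marking the motifs found by a letter search of both strands. The Asprv1 window is chr6:86627924-86628173 on the plus strand, and the Prok2 window is chr6:99726393-99726642 on the minus strand.
Asprv1: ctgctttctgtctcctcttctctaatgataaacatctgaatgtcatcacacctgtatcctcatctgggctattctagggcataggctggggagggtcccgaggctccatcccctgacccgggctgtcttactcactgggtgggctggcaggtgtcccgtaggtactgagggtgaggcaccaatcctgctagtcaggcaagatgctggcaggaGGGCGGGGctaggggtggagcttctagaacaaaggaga
Prok2: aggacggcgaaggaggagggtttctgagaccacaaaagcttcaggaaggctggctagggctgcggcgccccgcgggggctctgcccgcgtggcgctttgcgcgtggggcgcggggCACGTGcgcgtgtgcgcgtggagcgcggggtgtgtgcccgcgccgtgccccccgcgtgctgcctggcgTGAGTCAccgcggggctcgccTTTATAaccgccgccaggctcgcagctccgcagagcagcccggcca
The Asprv1 window held a GC box (GGGCGGGG) beginning 38 bases before the start, a motif found in 16.1% of the 32851 windows of that length in the table. The Prok2 window held an E-box (CACGTG) beginning 135 bases before the start, an AP-1 motif (TGANTCA) at 67 bases and a TATA box (TATAAA, here on the opposite strand) at 46 bases. These motifs were present in 6.02%, 6.75% and 12.4% of all windows. Neither window held the letters of the STAT motif TTCNNNGAA, the C/EBP motif TTGCNNAA or the ETS motif GGAAGT, which 7.02%, 9.56% and 19.7% of windows held. The windows differed most in base composition. G and C made up 73.6% of the Prok2 window, with 34 CpG dinucleotides, and 56.4% of the Asprv1 window, with 4 CpG, against medians of 52.4% and 6 over all windows. The motifs were chosen with these sequences in view, and a match of letters does not show that a factor binds there.

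Filtering left 12803 of 12880 barcodes in the control library and 15579 of 15771 in the T1D library, whose tables summed to 57494166 and 52022458 counts. The median kept cell had 3633 and 2757 counts. Ribosomal RNA took 30.3% and 34.0% of the counts, and 253 barcodes occurred in both libraries. Cells were clustered without Asprv1 and Prok2, and clusters were named from marker genes. Names carry the sense of "like", since no sorted reference was used. The mature neutrophil class carried all 8 of its markers above 50 CPM in both libraries (CPM is the gene's share of all counts of the summed cells, scaled to a common total), and the immature class all 7 of its own. A cluster between them, which carried markers of both stages, was called intermediate after the clusters had been seen.

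Over all kept cells, Asprv1 gave 1512 control counts and 9969 T1D counts. These are 26.4 CPM (25.1 to 27.8) and 193 CPM (189 to 197), a 7.31-fold higher level in the T1D library (6.92 to 7.72). Prok2 gave 1566 and 5782 counts, or 27.3 CPM (26.0 to 28.7) and 112 CPM (109 to 115), which was 4.09-fold higher (3.87 to 4.33). Both genes thus stood at nearly the same CPM in the control library and apart in the T1D library. By a rule of size, which asks for a log2 ratio of at least 1 after adding 5 CPM to both sides, a level of 50 CPM or more on the higher side and a ratio whose counting interval leaves out 1, 0.0935% of 27817 genes were higher in the T1D library. Among the 2779 genes with at least 50 CPM in either library the share was 0.936%, and there Asprv1 ranked 3 and Prok2 ranked 6 by log2 ratio. These ranks come from the values that chose the genes.

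The T1D library also held more neutrophil-lineage cells. In the control and T1D libraries progenitors were 4.90% and 8.36% of the kept cells, immature neutrophils 20.7% and 25.3%, intermediate neutrophils 13.3% and 15.4%, and mature neutrophils 11.6% and 18.8%. With the makeup of the control library and the class levels of the T1D library, Asprv1 would have stood 5.76-fold and Prok2 3.22-fold above the control value. With the control levels and the T1D makeup, the figures were 1.32-fold and 1.33-fold.

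**Figure D1:**
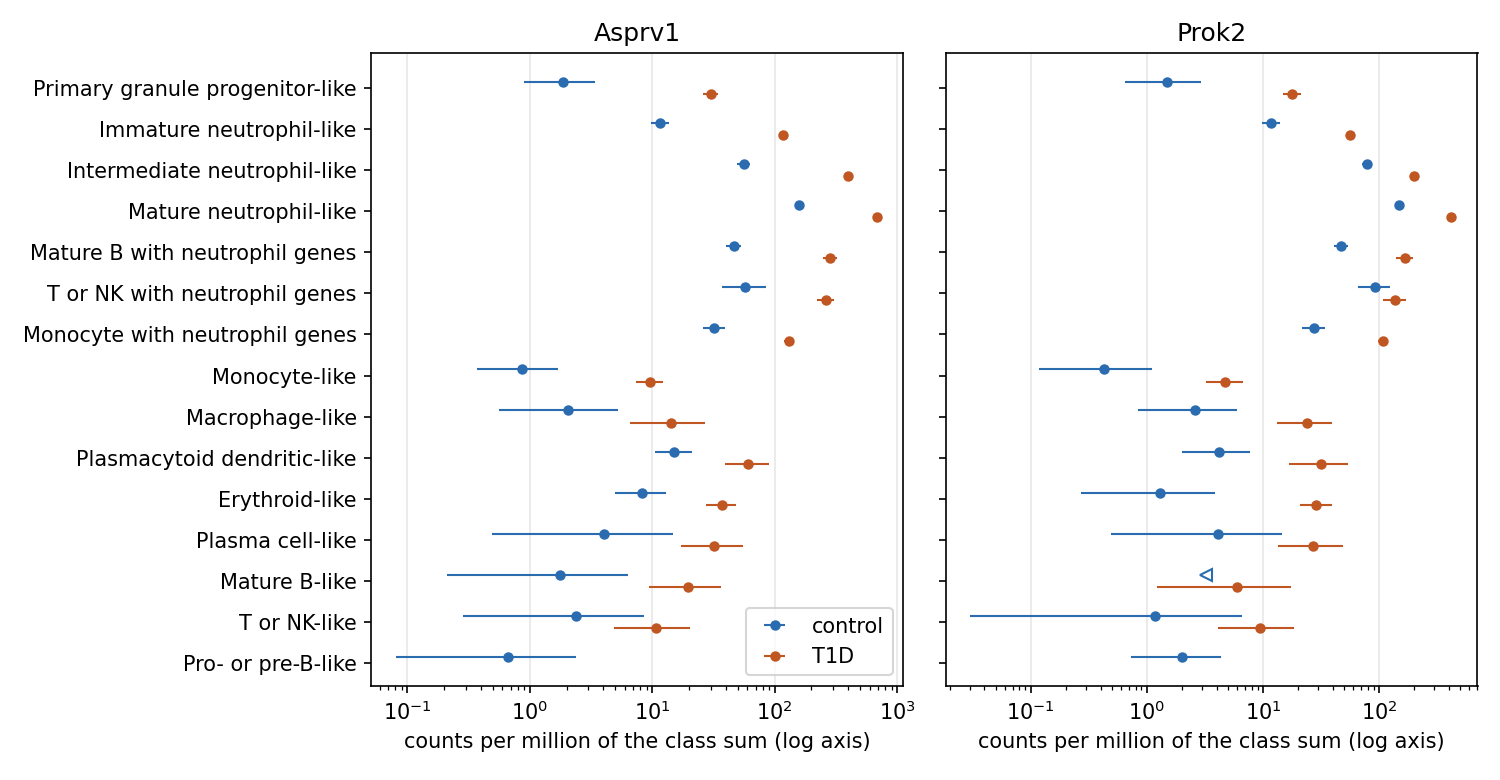
Levels of Asprv1 and Prok2 as CPM of each class sum on a log axis, with 1 point per library and exact 95% counting intervals as bars; the open triangle is the upper bound for Prok2 in control mature B cells, where no count was seen. Mature neutrophils stand highest in both libraries, at 159 and 690 CPM for Asprv1, and the T1D point lies above the control point in every class that both libraries hold.

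Asprv1 rose from stage to stage of the neutrophil lineage in both libraries. In control cells it stood at 1.87 CPM (0.895 to 3.43) in primary granule progenitors, 11.6 CPM (9.72 to 13.8) in immature neutrophils, 55.8 CPM (49.6 to 62.4) in intermediate neutrophils and 159 CPM (147 to 171) in mature neutrophils. The T1D cells of these stages held 29.97 CPM (26.0 to 34.4), 116 CPM (111 to 122), 394 CPM (379 to 410) and 690 CPM (670 to 710). No interval of a stage overlapped that of the next stage, and at each stage the T1D value lay above the control value. As a plain fold the ratio of the libraries was 16.1-fold (8.56 to 34.0) in progenitors, 9.99-fold (8.35 to 12.0) in immature, 7.07-fold (6.27 to 7.997) in intermediate and 4.35-fold (4.01 to 4.72) in mature cells. The progenitor value rests on 10 control counts, and its interval overlaps that of immature cells. The T1D progenitor level of Asprv1 lay below the 36.3 CPM upper bound of T1D mature B cells. With 5 CPM added to both sides the log2 ratios were 2.35, 2.87, 2.72 and 2.09, so that mature cells had the smallest and immature cells the largest.

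Prok2 had the same order of stages. Control cells held 1.49 CPM (0.644 to 2.94) in progenitors, 11.7 CPM (9.81 to 13.9) in immature, 79.2 CPM (71.9 to 87.1) in intermediate and 149 CPM (138 to 161) in mature neutrophils. The T1D levels were 17.8 CPM (14.8 to 21.3), 56.6 CPM (52.6 to 60.8), 201 CPM (191 to 213) and 421 CPM (405 to 437). The T1D excess of Prok2 was smaller than that of Asprv1 in each of the last 3 stages, at 4.83-fold (4.004 to 5.86), 2.54-fold (2.28 to 2.84) and 2.82-fold (2.59 to 3.08), with no overlap of the counting intervals of the genes. In progenitors, at 11.9-fold (5.86 to 28.3), the intervals overlapped. The T1D progenitor level of Prok2 lay below the 18.7 CPM upper bound of T1D T cells or NK cells. The immature class also differed in makeup, so its fold joins level and makeup. A late immature cluster made up 11.7% of its control and 18.6% of its T1D cells, with Prok2 at 48.5 and 172 CPM. A cluster with the secondary granule genes Ltf and Ngp made up 46.7% and 35.1%, with Prok2 at 8.03 and 25.8 CPM.

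Few genes reached a ratio of this size in the neutrophil classes. The rule of size passed 0.133% of genes as higher in T1D immature cells, 0.208% in intermediate cells and 0.182% in mature cells, and 0.113% in progenitors. Asprv1 and Prok2 passed it in immature, intermediate and mature neutrophils, and neither reached 50 CPM in progenitors. Of the genes with at least 50 CPM it passed 1.21%, 1.84% and 1.57% in immature, intermediate and mature cells. Among these genes, Asprv1 ranked 4 of 2227 in immature, 3 of 1953 in intermediate and 4 of 2043 in mature cells. Prok2 ranked 7, 19 and 11. Of the stage genes, none passed the rule in mature neutrophils. There the neutrophil-secreted protein Retnlg stood at 38749 and 36328 CPM, Cxcr2 at 1636 and 1345 CPM, the collagenase Mmp8 at 3375 and 2622 CPM and the cytokine Il1b at 2143 and 2604 CPM in the control and T1D libraries. Stfa2l1, a stefin-family protease inhibitor, stood at 230 and 377 CPM. In earlier cells some stage genes did pass. Stfa2l1 stood at 11.7 and 50.8 CPM in immature neutrophils, a 4.33-fold ratio (3.59 to 5.26) that ranked 8, next after Prok2, and it was 2.54-fold higher over all kept cells. Il1b was 2.20-fold higher in intermediate cells (1.98 to 2.44), which also passed. In progenitors Mmp8 (2.23-fold), Retnlg (2.26-fold) and Il1b (2.35-fold) passed as higher in the T1D library, while Mpo, Ltf, Ngp, Cxcr2 and Stfa2l1 did not.

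The share of cells with at least 1 count followed the levels. Asprv1 was detected in 21.4% of 1488 control mature neutrophils (19.3 to 23.5%) and in 59.9% of 2936 T1D mature neutrophils (58.1 to 61.7%). The median depth of these cells was 2458 and 1980 counts, so the library with the higher share was the shallower one. After each cell had been thinned to 1000 counts the shares were 12.3% (10.7 to 14.1%) and 41.2% (39.5 to 43.1%). Prok2 was detected in 21.2% and 42.2% of the mature cells, and in 11.9% (10.3 to 13.6%) and 27.7% (26.0 to 29.3%) after thinning. In T cells or NK cells, which should lack both genes, the thinned shares in the T1D library were 1.84% for Asprv1 and 1.31% for Prok2. Lower in the lineage, thinned immature neutrophils were Asprv1-positive in 1.06% of control and 10.01% of T1D cells, and Prok2-positive in 1.06% and 4.87%.

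**Figure D2:**
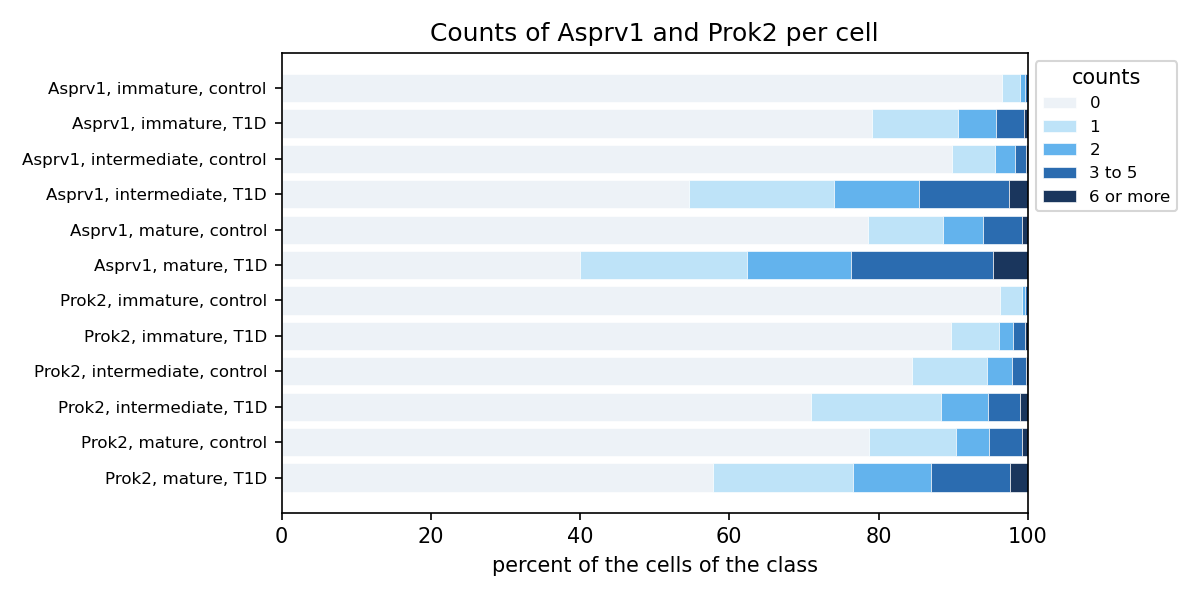
Share of cells, in percent, holding 0, 1, 2, 3 to 5, or 6 or more counts of Asprv1 or Prok2, in the immature, intermediate and mature neutrophils of each library, as deposited. Cells without a count of Asprv1 fall from 78.6% of control mature neutrophils to 40.1% in the T1D library, and all higher count groups are larger there.

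The higher T1D level was spread over many cells. Among T1D mature neutrophils 22.3% held 1 count of Asprv1, 14.0% held 2, 18.97% held 3 to 5 and 4.67% held 6 or more, with a highest value of 16 counts in a cell. Among control mature neutrophils 10.01% held 1 count, 5.31% held 2, 5.24% held 3 to 5 and 0.806% held 6 or more, with a highest value of 9. One part of this is more positive cells, and another is more counts in each, with 2.59 counts of Asprv1 per positive T1D cell against 2.10 in the control library. Prok2 gave 2.24 and 1.99 counts per positive cell, and its highest values were 15 and 11. The cells that together held 50% of the Asprv1 counts made up 14.6% of T1D and 5.44% of control mature neutrophils. For Prok2 they made up 10.46% and 5.04%.

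Detection of one gene said little about the other within the mature class. Both were found in 70 control mature cells where independent detection gives 67.5, and in 789 T1D mature cells where it gives 743, which are 1.04 and 1.06 times that number. On cells thinned to 1000 counts the ratios were 1.01 and 0.994. Of the thinned T1D mature cells, 27.5% of the Asprv1-positive and 27.8% of the Asprv1-negative cells held a count of Prok2. In immature T1D cells, which span a wider range of stages, the genes met in 174 cells against 84.9 under independence, or 2.05 times, and in 2.65 times after thinning. Intermediate cells lay between, at 1.11 in the control and 1.13 in the T1D library. After thinning they gave 1.70 in the control library, on 9 cells against 5.29 under independence, and 1.12 in the T1D library.

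The ratio of Asprv1 counts to Prok2 counts showed that the genes did not keep 1 proportion. These are ratios of counts, not corrected for transcript length, so only their differences are read. The ratio was 0.966 (0.899 to 1.04) over all control cells and 1.72 (1.67 to 1.78) over all T1D cells. In mature neutrophils it was 1.06 (0.952 to 1.19) and 1.64 (1.56 to 1.72), and in intermediate cells 0.704 (0.606 to 0.818) and 1.96 (1.83 to 2.10). Among the neutrophil clusters of the T1D library the highest ratios belonged to 2 clusters of immature cells. In a cluster with Fcnb and the cell-division genes Spc25 and Neil3 among its leading genes the ratio was 5.41 (3.63 to 8.35), and in a cluster with the secondary granule genes Ltf and Ngp among them it was 4.52 (3.62 to 5.69). A smaller immature cluster that also carried cell-division genes, with 454 T1D cells and with the late genes Retnlg at 9149 CPM and Il1b at 564 CPM, went the other way at 1.21 (1.03 to 1.43). A small mature cluster of 272 T1D cells, with the early gene Ngp at 30500 CPM, also had a raised ratio, at 3.25 (2.66 to 3.99). In the control library the first 2 clusters gave 1.5 (0.630 to 3.73) and 1.38 (0.870 to 2.22). Asprv1 in the Ltf and Ngp cluster stood at 11.1 CPM in control and 117 CPM in T1D cells, where Prok2 stood at 8.03 and 25.8 CPM. The T1D ratio of 5.41 rests on lower levels, with Asprv1 at 29.7 CPM and Prok2 at 5.49 CPM. Mature B cells of that library held 19.8 and 5.93 CPM.

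Retnlg, an abundant transcript of late neutrophils, gave a common scale for the classes. Asprv1 gave 4.13 counts per 1000 Retnlg counts (3.81 to 4.47) in the main mature cluster of the control library and 18.5 (18.0 to 19.1) in that of the T1D library. In the T1D library the intermediate cells gave 19.1 (18.4 to 19.9), the late immature cells 19.8 (18.3 to 21.5) and the primary granule progenitors 16.7 (14.5 to 19.2). The progenitors' Asprv1 thus came in nearly the proportion to Retnlg that mature cells had. The Ltf and Ngp cluster, at 37.3 (33.9 to 41.1), and the larger dividing cluster, at 54.8 (46.4 to 64.4), stood above all of these. The smaller dividing cluster with late genes stood at 16.9 (15.1 to 18.8), and the small mature cluster with Ngp at 24.9 (22.5 to 27.4). Prok2 showed no such excess in the T1D library, with 11.9 (11.4 to 12.3) in the main mature cluster, 8.26 (6.70 to 10.1) in the Ltf and Ngp cluster and 10.1 (6.77 to 14.6) in the larger dividing cluster. Control cells of these early clusters gave 7.03 (5.16 to 9.36) and 9.19 (5.13 to 15.2) for Asprv1, also above the 4.13 of their mature cluster, on 47 and 15 counts. In the larger dividing cluster of the T1D library both sides of the ratio were low. Retnlg stood there at 542 CPM, below the 867 CPM of T1D mature B cells. Asprv1 stood at 29.7 CPM, below the 36.3 CPM upper bound of those B cells.

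**Figure D3:**
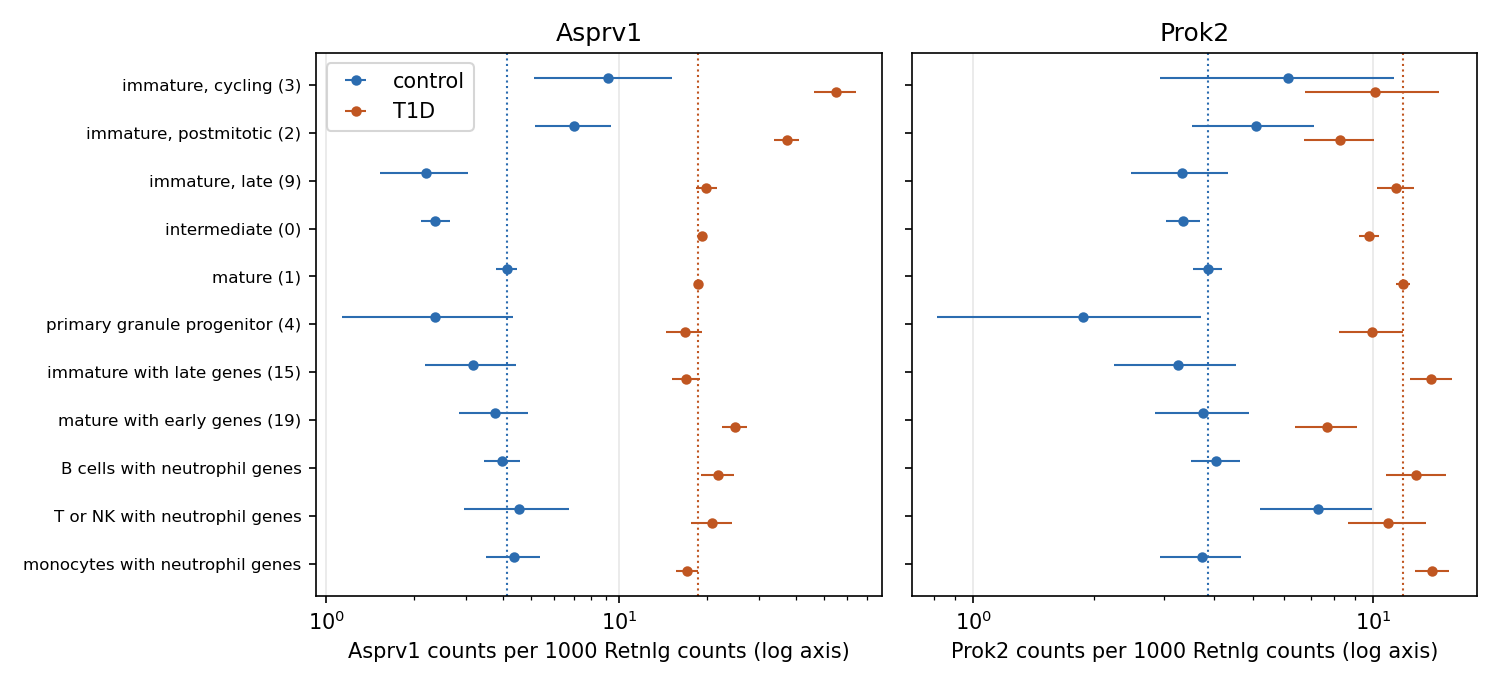
Counts of Asprv1 and of Prok2 per 1000 counts of Retnlg, on log axes, for clusters of the neutrophil lineage (cluster numbers in brackets) and for the clusters of other cell types that carry neutrophil genes; bars are exact 95% counting intervals and dotted lines mark the main mature cluster of each library. Most T1D clusters lie near the line for Asprv1, while the cycling and the postmitotic immature clusters (3 and 2) lie at 54.8 and 37.3 against 18.5. The mature cluster with early genes (19) lies at 24.9. Cluster 3 rests on low T1D levels, 29.7 CPM of Asprv1 and 542 CPM of Retnlg.

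A finer clustering divided the progenitors. At a Leiden resolution of 2, 834 T1D cells of this class held 6.97 CPM of Asprv1 with 267 CPM of Retnlg, 216 held 2.87 CPM with 194 CPM, and 384 held 79.3 CPM with 5412 CPM of Retnlg. The progenitor level of Asprv1 therefore rested mostly on the cells that also carried Retnlg. Prok2 in these groups stood at 2.41, 4.31 and 58.6 CPM. The same clustering gave 4 mature groups that the libraries filled unevenly. Asprv1 was higher in T1D cells in each, at 209 and 757 CPM, 95.9 and 585 CPM, 176 and 826 CPM, and 74.2 and 453 CPM in control and T1D cells. Prok2 stood at 158 and 452 CPM, 188 and 428 CPM, 168 and 408 CPM, and 86.7 and 208 CPM. In the partition used throughout, both libraries had most of their mature cells in 1 cluster, 86.6% of the control and 90.7% of the T1D cells.

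Outside the neutrophil lineage both genes were low. Monocytes held 0.864 CPM of Asprv1 in 1546 control cells and 9.60 CPM in 1573 T1D cells, and 0.432 and 4.73 CPM of Prok2. Mature B cells held 1.76 CPM of Asprv1 in 442 control cells and 19.8 CPM in 275 T1D cells, and T or NK cells 2.37 and 10.7 CPM. Prok2 was not seen in control mature B cells, which allows up to 3.24 CPM, and stood at 5.93 CPM (1.22 to 17.3) in T1D mature B cells. These levels rest on 0 to 10 counts in the B and T or NK cells.

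Macrophages held 2.07 and 14.3 CPM of Asprv1 and 2.59 and 23.8 CPM of Prok2, and erythroid cells 8.30 and 36.9 CPM of Asprv1 and 1.31 and 28.9 CPM of Prok2. The macrophage levels rest on 4 and 9 counts of Asprv1 and 5 and 15 of Prok2, and control erythroid Prok2 rests on 3. Neither gene reached 50 CPM in monocytes, macrophages, mature B, T or NK or erythroid cells, so none of these classes passed the rule of size for them. Its background there was 0.309%, 0.709%, 0.456%, 0.302% and 0.354% of genes higher in the T1D library. Plasmacytoid dendritic cells, with 507 control and 97 T1D cells, were too few in the T1D library to be compared. They held 15.2 and 60.5 CPM of Asprv1. At a Leiden resolution of 2 this class divided into 93 control and 32 T1D cells that carried neutrophil genes, with 61.8 and 154 CPM of Asprv1 and 8128 and 6044 CPM of Retnlg, and 415 and 66 other cells with 1.10 and 7.48 CPM of Asprv1. Plasma cells held 4.08 CPM of each gene in 70 control cells, on 2 counts each. In 92 T1D cells they held 32.2 CPM of Asprv1 and 27.2 CPM of Prok2, on 13 and 11 counts. The 825 pro- or pre-B cells, all of the control library, held 0.664 CPM of Asprv1 and 1.99 CPM of Prok2.

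In order of level among the named classes of the T1D library, Asprv1 fell from mature to intermediate to immature neutrophils without overlap of counting intervals. Next came plasmacytoid dendritic cells, whose place rests on the few that carried neutrophil genes, then erythroid cells, plasma cells and progenitors, and then mature B cells, macrophages, T or NK cells and monocytes. From plasmacytoid dendritic cells down, each class overlapped its neighbour in that order. Every one of these T1D levels lay above its control level, also where the T1D level was a few counts. The interval of the ratio included 1 for Asprv1 in T or NK cells (0.931 to 42.8, on 2 and 9 counts). It also did so for Prok2 in mature B cells, on 0 and 3 counts. Per 1000 Retnlg counts, Asprv1 gave 28.3 (21.8 to 36.3) in T1D monocytes, 18.97 (14.1 to 25.02) in erythroid cells and 22.8 (10.8 to 42.3) in mature B cells. The mature neutrophils of that library gave 18.98 (18.4 to 19.5), which lay below the monocyte interval and within the other 2. Prok2 gave 23.7 (13.2 to 39.4) in T1D macrophages, on 15 counts, above the 11.6 (11.2 to 12.0) of mature neutrophils. Whether free RNA had a part in them was not tested.

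Apart from these stood 3 clusters of other cell types that carried neutrophil genes, set aside after the levels of Asprv1 and Prok2 in them had been seen. Their median level over 15 immature and mature neutrophil markers was at least 10% of that of the highest neutrophil cluster. One had B-cell markers (1027 control and 251 T1D cells), one monocyte markers (376 and 755) and one T or NK markers (105 and 175). Asprv1 stood at 46.2 and 283 CPM in the B-cell cluster, 32.1 and 131 CPM in the monocyte cluster and 57.3 and 261 CPM in the T or NK cluster. Prok2 stood at 46.9 and 167 CPM, 27.4 and 107 CPM, and 91.6 and 137 CPM.

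Retnlg in these clusters lay between 7356 and 13045 CPM and Ngp between 10439 and 20369 CPM. Their cells were deeper, with median totals of 3742 and 2897 counts in the B-cell cluster against 2259 and 1710 in the other mature B cells. Per 1000 Retnlg counts the B-cell cluster gave 3.98 (3.45 to 4.57) and 21.7 (18.96 to 24.7) of Asprv1 and 4.04 (3.51 to 4.64) and 12.8 (10.8 to 15.2) of Prok2, where mature neutrophils gave 4.09 and 18.98 of Asprv1 and 3.85 and 11.6 of Prok2. The T or NK cluster gave 7.30 (5.21 to 9.96) of Prok2 in the control library, and the monocyte cluster 14.0 (12.7 to 15.5) in the T1D library, both above the mature cells. Doublets could not be called in these data, and their part in these clusters was not tested.

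The stage at which each gene appeared was read along a maturation axis. All 17050 cells of the neutrophil lineage were ranked by 8 late minus 8 early genes and cut into 10 bins of equal cell number, pooled over the libraries. Retnlg, Mmp8 and Cxcr2 were among the late genes and Mpo among the early ones. Genes kept out of the axis followed it, with Mki67 and Top2a of dividing cells highest in bins 1 and 2, Ngp in bin 4, Ltf in bin 5, and Il1b and the chemokine Cxcl2 in bin 10. Asprv1 rose in the control library from 1.43 CPM (0.575 to 2.95) in bin 1 through 32.9 CPM in bin 5 to 156 CPM (140 to 172) in bin 10. In the T1D library it rose from 23.8 CPM (19.9 to 28.2) through 222 CPM to 818 CPM (776 to 862). Prok2 rose from 1.23 CPM through 24.4 CPM to 183 CPM in the control library, and from 9.45 CPM through 111 CPM to 466 CPM in the T1D library. Both genes were highest in the last bin in both libraries.

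**Figure D4:**
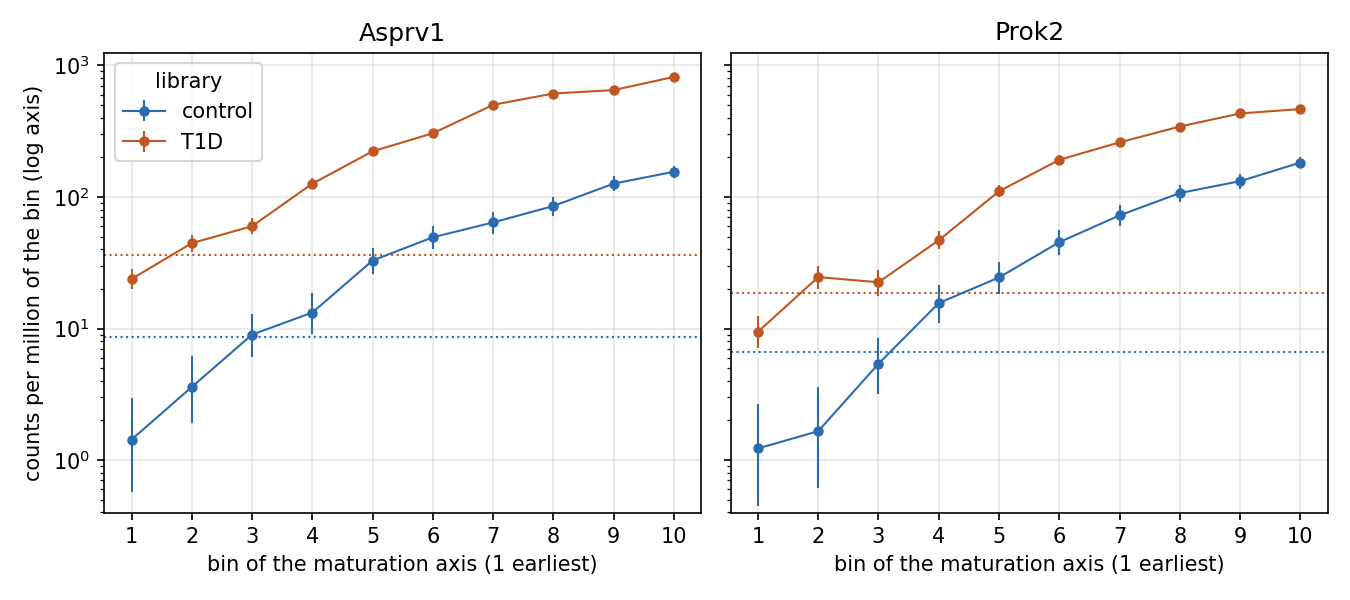
Asprv1 and Prok2 in CPM (log axis) by bin of the maturation axis, from bin 1 (earliest) to bin 10, for the control and T1D libraries; bars are exact 95% counting intervals and dotted lines the upper bound of the lymphoid background of each library. Both genes climb to bin 10 in both libraries, and the T1D line stays above the control line in all 10 bins.

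The T1D excess was present at each bin, and as a plain fold it was smaller in the last bins than in the first. It ran for Asprv1 from 16.6-fold (7.85 to 42.2) in bin 1 to 5.26-fold (4.69 to 5.91) in bin 10, with its smallest value of 5.14-fold in bin 9. For Prok2 it ran from 7.71-fold (3.31 to 22.0) in bin 1 and 14.8-fold (6.59 to 41.3) in bin 2 to 2.55-fold (2.27 to 2.88) in bin 10. The first 2 control bins hold 6 to 13 counts of each gene, which is why these intervals are wide. In T1D bin 1, Asprv1 (23.8 CPM) lay below the 36.3 CPM upper bound of T1D mature B cells. Prok2 (9.45 CPM) lay below the 18.7 CPM upper bound of T1D T or NK cells. Control and T1D mature B cells held 1.76 and 19.8 CPM of Asprv1, on 2 and 10 counts. T or NK cells held 1.19 and 9.49 CPM of Prok2, on 1 and 8 counts. The folds of bin 1 were therefore not told apart from this background.

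Onset was defined as the first of 2 bins in a row whose lower bound lay above the upper bound of the library's higher lymphoid class, mature B or T or NK. That upper bound was 8.57 CPM for Asprv1 and 6.61 CPM for Prok2 in the control library, and 36.3 and 18.7 CPM in the T1D library. By this definition Asprv1 began in bin 4 in the control library and in bin 2 in the T1D library, and Prok2 began in bin 4 in both. Bin 2 of the axis was made up of immature neutrophils at 84.0% and 73.4% and of progenitors at 15.7% and 25.7% in the control and T1D libraries. Bin 4 was made up of immature neutrophils at 86.1% and 81.9%.

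These onset bins are not firm. Asprv1 in T1D bin 2 had a lower bound of 38.5 CPM, just above the 36.3 CPM required, and began 1 bin later when the axis was built on unthinned cells. Prok2 in the T1D library passed in bin 2, with a lower bound of 20.1 CPM, and missed in bin 3, with 17.8 CPM. A pair of clusters in the lineage, holding both the early gene Ngp and the late gene Il1b, were of uncertain stage, and without them Asprv1 began in bin 5 in the control and bin 3 in the T1D library while Prok2 still began in bin 4. With the clusters that carry neutrophil genes counted among the lymphoid cells, both genes began in bin 7 in the control library and in bin 6 in the T1D library. In each of these settings Asprv1 began earlier in the T1D than in the control library, and in the last of them so did Prok2. With 20 bins Prok2 began at 35% of the axis in the control and 25% in the T1D library, and on an axis without genes past the rule of size at 30% and 20%, so its common start in bin 4 depends on the settings, and no test of that difference was possible.

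Relative to its own peak, each gene rose somewhat earlier along the axis in the T1D library. Asprv1 first reached 50% of its peak in bin 8 of the control and bin 7 of the T1D library, and so did Prok2. Mmp8 reached 50% in bin 6 of both libraries, Retnlg in bin 7, Cxcr2 in bin 8 and Il1b in bin 9. Asprv1 and Prok2 thus fell among Retnlg and Cxcr2, after Mmp8 and before Il1b. Since Mmp8, Retnlg and Cxcr2 helped to rank the cells, their bins are partly set by the axis. Il1b and Stfa2l1 were kept out of it. Stfa2l1 had the same bins as Asprv1 and Prok2, 8 and 7. At bin 5 Asprv1 was at 21.1% of its peak in control and 27.2% in T1D cells, Prok2 at 13.4% and 23.7%, and Retnlg at 18.2% and 23.6%. Retnlg thus also rose earlier there in the T1D library. Like both genes, it first reached 10% of its peak in bin 5 of the control and bin 4 of the T1D library. At bin 7 Asprv1 was at 41.2% and 61.3%, and Prok2 at 39.7% and 55.9%, where Retnlg was at 51.4% and 54.3%.

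**Figure D5:**
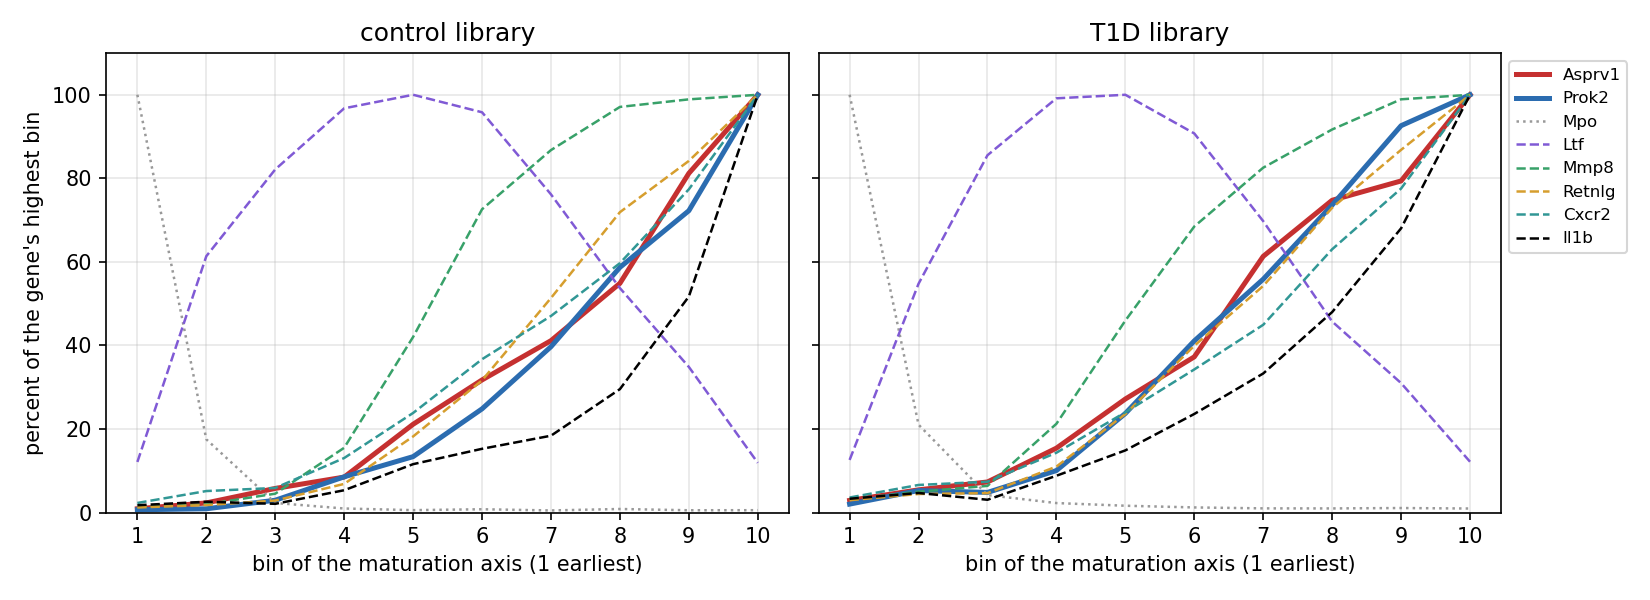
Level of each gene in percent of its highest bin, by bin of the maturation axis, in the control and the T1D library; Asprv1 and Prok2 are thick lines and 6 stage genes are thin lines. In the T1D library both genes run beside Retnlg, at 61.3% and 55.9% of their peaks in bin 7 against 54.3% for Retnlg, between Mmp8 and Il1b. Mpo, Mmp8, Retnlg and Cxcr2 are among the genes that built the axis.

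Across the 18 class-by-library sums, the gene most like Asprv1 among 5498 genes was Prok2, and the reverse, with a Pearson r of 0.970 on log2(CPM + 5). The sums share their libraries and the neutrophil classes set most of the range, so the values are descriptions. Next after Prok2, Asprv1 was nearest to Stfa1 (0.968), Stfa2l1 (0.960), Gm42462 (0.954), Stfa2 (0.950) and Stfa3 (0.943), of which 4 encode stefins, inhibitors of cysteine proteases, and then to the orphan receptor Gpr27 (0.939) and BC100530 (0.927). Prok2 was nearest after Asprv1 to Gm42462 (0.968), Stfa2l1 (0.967), Gpr27 (0.952), Gm5483 (0.942), Gm43181 (0.941), Scrg1 (0.936) and Ppp1r3b (0.934), a glycogen-targeting subunit of a phosphatase.

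Along the axis, over 20 bin-by-library sums and 4064 genes, the nearest genes were different. Asprv1 was nearest to Rassf5 (0.986), a Ras effector in adhesion, to Gm45221, Gm45220 and Gm42462, to the nuclear RNA Neat1, to the transcription factor Cebpb (0.972), to Stfa3 and to Prok2 (0.970). Prok2 was nearest to Mcl1 (0.993), which protects neutrophils from cell death, then to Fbxl5, Neat1, Cyp4f18, Gpcpd1, Trp53inp1, Klf3 and Gm45223, and Asprv1 came in at rank 27. Neat1 stood in both lists. Within the lineage, Prok2 was thus more like other genes than like Asprv1.

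The receptors of prokineticins were nearly absent. Over all kept cells Prokr1 gave 8 control counts and 0 T1D counts, the related ligand Prok1 gave 0 and 1, and Mrap2, an accessory protein of these receptors, gave 2 and 3. Prokr2 was not among the genes of the tables.

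Of the 18 genes of the G-CSF receptor and STAT3 pathway, 2 passed the rule of size as higher in T1D immature, intermediate and mature neutrophils, and none as lower. Of all genes, 0.133%, 0.208% and 0.182% were higher and 0.0295%, 0.127% and 0.222% were lower in these classes. The rule asks for 50 CPM, which 8, 9 and 12 genes of the list reached. Of all genes at that level, 1.21%, 1.84% and 1.57% were higher. Pim1, a kinase induced by this pathway, stood at 401 and 815 CPM in mature cells, a 2.03-fold ratio (1.93 to 2.15), and was 2.73-fold higher in immature and 2.64-fold higher in intermediate cells. Cebpb, a transcription factor of emergency granulopoiesis, stood at 179 and 439 CPM in mature cells, a 2.45-fold ratio (2.26 to 2.66), and was 3.19-fold and 3.18-fold higher in the other 2 classes. The receptor Csf3r stood at 837 and 634 CPM, Stat3 at 297 and 336 CPM and the feedback inhibitor Socs3 at 42.2 and 54.7 CPM in mature cells, none of them past the rule. Among genes of at least 50 CPM, the median log2 ratio of the list was 0.18 in immature, 0.26 in intermediate and 0.10 in mature cells, against 0.04, -0.01 and -0.05 for all genes. In monocytes, T or NK cells and erythroid cells 2 genes of the list passed as higher, of 13, 11 and 8 at 50 CPM. Of all genes, 0.309%, 0.302% and 0.354% passed there. In progenitors, macrophages and mature B cells 1 gene of the list passed, of 9, 13 and 8, beside 0.113%, 0.709% and 0.456% of all genes.

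None of the 9 genes of retention in and release from the marrow passed the rule in immature, intermediate or mature neutrophils. Of all genes, 0.133%, 0.208% and 0.182% were higher and 0.0295%, 0.127% and 0.222% were lower in these classes. The 50 CPM of the rule was reached by 6, 6 and 7 genes of the list. Of all genes at that level, 1.21%, 1.84% and 1.57% were higher. With so few genes, the absence of a call is not read as a result about the list. In mature cells the retention receptor Cxcr4 stood at 88.9 and 143 CPM and the gelatinase Mmp9 at 2031 and 1374 CPM. Among genes of at least 50 CPM the median log2 ratio of the list was -0.19, against -0.05 for all genes.

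Of 16 other aspartic proteases and their relatives, 15 were in the tables and 11 had counts in mature neutrophils, where 1 passed the rule, beside 0.182% of all genes. There 4 of the list reached the 50 CPM that the rule asks for, and of all genes at that level 1.57% passed as higher. Ddi2, which has a retroviral-like protease domain as Asprv1 does, stood at 28.2 and 75.2 CPM there, a 2.66-fold ratio (2.18 to 3.28), and at 32.0 and 42.5 CPM in immature cells, which did not pass. The lysosomal protease Ctsd, the most abundant of them, stood at 376 and 278 CPM in mature cells. Among genes of at least 50 CPM the median log2 ratio was 0.03 for the 4 of this list and -0.05 for all genes. Of 12 genes of the skin barrier, in which Asprv1 is best known, 5 were in the tables and none reached 50 CPM. Tgm1, a transglutaminase, was the highest with 99 and 153 counts over all kept cells, and Flg, which encodes profilaggrin, gave 1 count in each library.

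A gene on the opposite strand, Gm26748, overlaps the 5′ end of Prok2 in the GENCODE annotation, and whether the counting used strand is not given in the sources used here. It gave 29 and 60 counts over all kept cells and 8 and 22 in mature neutrophils, against 629 and 2776 counts of Prok2.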

How the data were processed

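Single cells of 1 control and 1 T1D library were measured with the Singleron GEXSCOPE kit, per the labels' protocols, and grouped by disease state. The authors deposited whole-number counts per gene and barcode. The submitters' processing notes name bcl2fastq 2.19, featureCounts and the build mm9. Neither the aligner nor the strand setting is given in the sources used here, nor whether molecular identifiers were collapsed.

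Cells of at least 200 genes and at most 20% mitochondrial counts were kept. Scrublet marked 1 control and 2 T1D cells, too few to have worked, and no doublets were removed. Clusters came from 2979 variable genes without Asprv1 and Prok2, with 30 principal components, 15 neighbours and Leiden resolution 1 (scanpy 1.11.5, igraph 0.11.9), taking the best modularity of 10 starts. Intervals are exact Poisson for CPM, conditional binomial for ratios and Clopper-Pearson for shares. With 1 library per group no p-value is given. No error rate is given for the rule of size. Named genes were Asprv1, Prok2, 8 stage genes, the 8 nearest by correlation, and list members past the rule with up to 3 others by level; Cxcl2, Mki67, Top2a, Spc25 and Neil3 were named outside it. Named members and lists were chosen with earlier results of these data known, and the intermediate class and the clusters set aside were defined after seeing these data. TMM (edgeR 4.0.16) and DESeq2 1.42.0 factors were used for alternatives only.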

Additional observations from a re-analysis of the deposited data

How the results depend on the processing

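No log2 ratio (T1D over control, 5 CPM added) changed direction. Of 220 recomputed values, 219 were above 0, and the other was 0, for Prok2 in mature B cells. Over all kept cells Asprv1 stood at 2.66 and moved to 2.78 with TMM scaling, 2.75 with DESeq2 scaling, 2.79 without ribosomal RNA, 2.82 with a pseudocount of 1 CPM, 2.54 on cells thinned to 1000 counts and 2.99 without the 1% of cells with most counts. Prok2 stood at 1.85 and moved in the same settings to 1.98, 1.95, 1.98, 1.99, 1.76 and 2.09. In immature neutrophils Asprv1 (2.87) moved to 3.21 with a pseudocount of 1 CPM, 2.54 with the clustering start of lowest modularity and 3.24 without the top 1% of cells, and Prok2 (1.88) to 2.18 and 1.46 in the first 2 of these. In mature neutrophils Asprv1 (2.09) moved to 2.22 without ribosomal RNA, 1.90 thinned, 2.29 with the start of lowest modularity and 2.21 without the top 1%, and Prok2 (1.47) to 1.60 without ribosomal RNA and 1.28 thinned. The other values stayed within the counting interval of the first value, apart from 3 for single classes. The cause of these moves was not tested.

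Onset, as percent of the axis passed before it, was 30 for Asprv1 in the control library and moved to 60 with the clusters that carry neutrophil genes counted in their classes and to 40 without the clusters of early and late genes. In the T1D library it was 10 and moved to 50 and 20 in these settings and to 20 on unthinned counts. Prok2, at 30 in both libraries, moved to 60 in the control and 50 in the T1D library with those clusters counted, and to 20 in the T1D library on an axis without Clec4d and Prtn3, which passed the rule of size themselves. Settings on these clusters were chosen after seeing the data. With 20 bins Asprv1 began at 35 and 15 and Prok2 at 35 and 25 in the control and T1D libraries, so the common start of Prok2 did not hold there either. The rule of size called 32 genes higher and 39 lower in T1D mature neutrophils, 103 and 91 without a minimum CPM, and 76 higher without ribosomal RNA, which shifted the median log2 ratio by 0.15. No paired analysis was possible because each group holds 1 library, and for the same reason no library could be left out. Depth limits the low levels most: control progenitors and lymphoid classes held 10 counts or fewer of each gene.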
